A study of Homo sapiens with 2 samples.

Results

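The genes described here make microRNAs and carry out silencing by them. They are the 10 genes DROSHA, DGCR8, XPO5, DICER1, AGO1, AGO2, AGO3, AGO4, TNRC6B and MOV10, chosen by name. The array held 19775 genes with a probe set of their own, and of the 10 only DGCR8 lacked one, its probe sets being shared with a second gene. A probe set is the group of short DNA probes that reads 1 transcript region, and 39 of 54613 probe sets other than controls were annotated to these genes. The samples were 2 cultures of K562, an established human erythroleukemia cell line, measured on Affymetrix expression arrays. One culture had received 3 µg of a control mimic, and the other 3 µg of a mimic of the microRNA miR-34a. Both mimics were delivered by nucleofection, an electrical transfer method, and total RNA was taken 24 hours later. There was 1 array per group, so every value is a single measurement and no test between the groups was possible; 2 arrays set the precision. No culture without a mimic was analysed here, so what loading with any mimic does to these genes was not measured; the comparison is between 2 loads of different sequence.

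A microRNA gene is transcribed into a long primary RNA. In the nucleus the RNase DROSHA, held to its substrate by the double-stranded RNA binding protein DGCR8, cuts a hairpin out of it. Exportin 5, the product of XPO5, carries the hairpin to the cytoplasm, where the RNase DICER1 removes the loop. One strand of the remaining duplex is loaded into an Argonaute protein, which recruits TNRC6 proteins and through them the enzymes that shorten, decap and degrade the bound mRNA. A synthetic mimic is delivered as a short duplex and so enters this route after the cuts of DROSHA and DICER1, at the loading of Argonaute.

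The sequences of miR-34a are shown because they mark where the members act and which bases of the guide read a target. In the hairpin of MIR34A, the natural source of miR-34a, the 5p and 3p arms are in capitals. It lies at chr1:9151668-9151777 on the minus strand of GRCh38.p14, per RefSeq.

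MIR34A hairpin: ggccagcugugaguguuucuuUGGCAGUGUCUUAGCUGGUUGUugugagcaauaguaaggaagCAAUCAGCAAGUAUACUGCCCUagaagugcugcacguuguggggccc

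DROSHA and DGCR8 act on the flanks of such a hairpin, and DICER1 on the 20 bases between the arms. The mature strands follow, with the seed (bases 2 to 8, the part of a microRNA that pairs first with an mRNA) in capitals.

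hsa-miR-34a-5p: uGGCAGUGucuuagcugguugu

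hsa-miR-34a-3p: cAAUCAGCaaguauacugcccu

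hsa-miR-449a: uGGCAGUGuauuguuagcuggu

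hsa-miR-449b-5p: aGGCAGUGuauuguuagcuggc

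The seed of miR-34a-5p also stands in miR-449a and miR-449b-5p in the RefSeq table used here, which does not hold every human microRNA, so others may share it. The other arm, miR-34a-3p, has a different seed. Which strand of the mimic was made as the guide is not given in the sources used here.

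Both arrays had similar scales. The median signal was 39.5 with the control mimic and 40.1 with miR-34a, and the log2 ratios of 18 probe sets for spiked-in RNA averaged 0.0093 ± 0.068 (SD). The 3′ to 5′ signal ratio, which grows with RNA degradation, was 3.07 for GAPDH with the control mimic and 3.53 with miR-34a. For ACTB it was higher, at 4.30 and 4.54. The part of this ratio in the values below was not tested. Of 10 measured K562 markers, 9 were above background on both arrays, GATA1, KLF1 and HBE1 among them, and the other, the receptor gene KIT, was not and stood at the lowest value of the table on an array. Markers of other cell types were above background for 1 of 5 myeloid, 1 of 4 T cell (CD3D), 1 of 3 B cell, 3 of 5 epithelial and 2 of 5 fibroblast genes. Their summed signals went from 648 to 701, from 1030.5 to 450.9, from 404 to 409, from 4199 to 3496 and from 602 to 403 in that order, and their part in the results was not tested. These were bulk measurements, in which fewer cells of a type and less RNA per cell cannot be told apart.

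Of the 30 expressed probe sets of the 10 genes, 0 were past 2-fold in either direction. That is near the share over all expressed probe sets, 0.538% higher and 0.498% lower with miR-34a. DICER1, XPO5 and MOV10 were lower with miR-34a, and so were the probe sets shared by DGCR8 and a microRNA gene. AGO2 was higher, and so was TNRC6B on its 2 probe sets above background, by very different amounts. AGO4 had higher signals with miR-34a on its 2 expressed probe sets, but from control signals within background, as did 3 dimmer probe sets of TNRC6B. DROSHA, AGO1 and AGO3 lay closest to no difference on their brightest probe sets, at log2 ratios of 0.16, 0.0031 and -0.040. A log2 ratio is log2(signal + 14.9) with miR-34a minus the same with the control mimic, centred on all expressed probe sets, so 1 means 2-fold and dim signals are pulled towards 0. A probe set counted as expressed when its level, the mean of both log2 values, reached the median of all probe sets, which 30 of the 39 did. A signal of at most 75.4, the highest of 27 probe sets for bacterial RNA at low signal, was taken as within background.

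**Figure D1:**
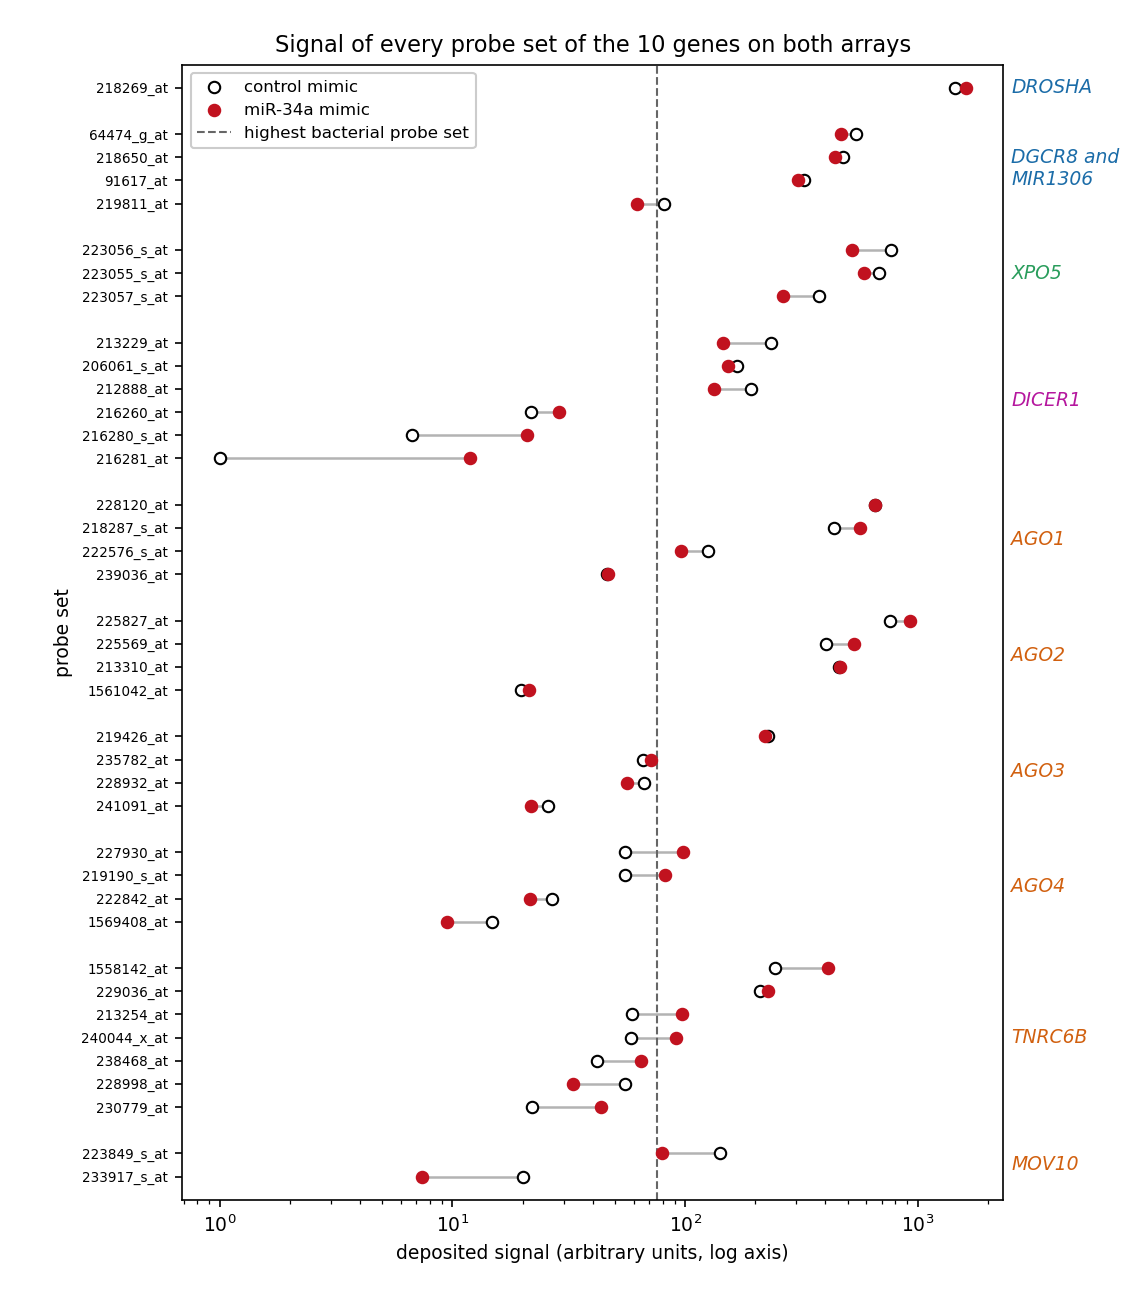
Deposited signal (arbitrary units, log axis) of each of the 39 probe sets on the control array (open circles) and the miR-34a array (filled circles), grouped by gene, with the highest bacterial probe set as a dashed line at 75.4. The filled circles lie left of the open ones for all 3 probe sets of XPO5 and the 3 bright ones of DICER1, and right of them for 6 of 7 of TNRC6B.

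Among all 27307 expressed probe sets, 0.538% were past 2-fold higher with miR-34a and 0.498% past 2-fold lower. At 1.5-fold, 3 of the 30 expressed member probe sets were higher, or 10.0%, against 3.23% of all expressed probe sets. In the other direction 2 of 30 were lower, or 6.67%, against 2.93%. These 5 probe sets belong to 4 genes, and 2 of the 3 higher ones had a control signal within background. These counts moved in both directions with the settings. Raising the pseudocount to 4 times its value left 1 higher and 0 lower at 1.5-fold. Dividing it by 4 gave 4 higher and 3 lower. Quantile normalization gave 2 in each direction, as did loess. Dropping the level filter gave 6 higher and 3 lower among 39 probe sets. A filter at the 75th percentile of level left 1 in each direction among 18. The median log2 ratio of the 30 was -0.018, with 15 higher and 15 lower, beside a median of 0 and 49.998% higher over all expressed probe sets.

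The spread at a given signal level was read from all expressed probe sets in 20 bins of equal size, 1365 or 1366 to a bin. By construction 5% of probe sets lie outside the central 95% of their bin. Of the 30 member probe sets 27 lay inside that range, 1 was above it (a probe set of TNRC6B) and 2 below it (1 each of DICER1 and MOV10).

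**Figure D2:**
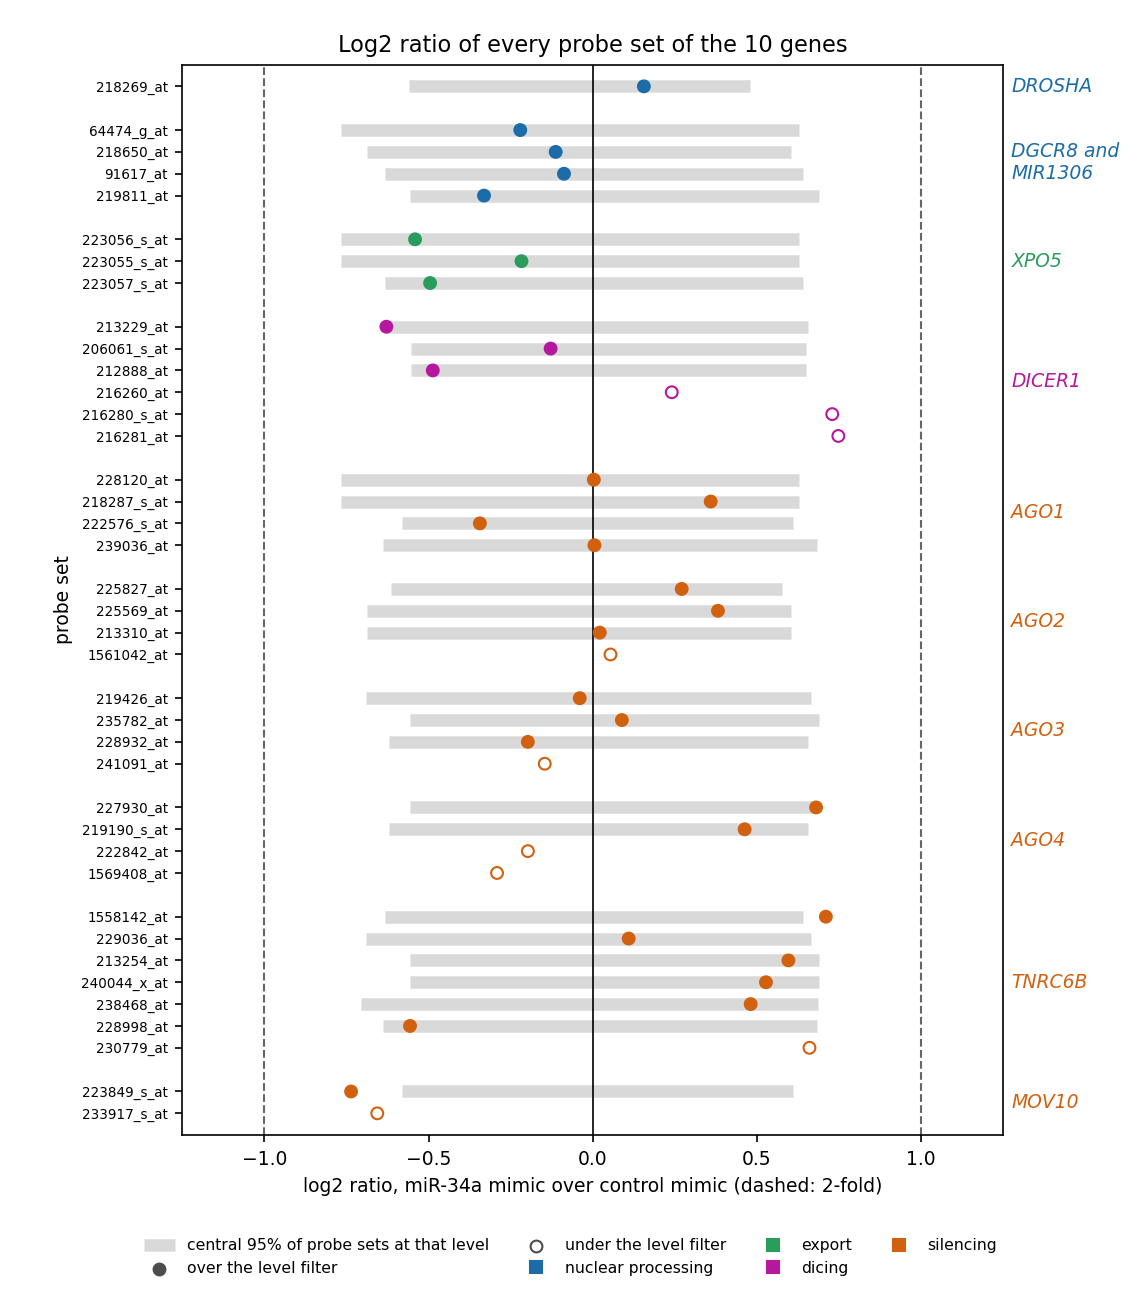
Log2 ratio of miR-34a over control mimic for the 39 probe sets, coloured by step, with grey bars for the central 95% of expressed probe sets at the same level and dashed lines at 2-fold. Filled points are over the level filter, and the 9 open ones under it; 3 filled points lie outside their grey bar, and 0 points reach a dashed line.

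The nuclear step was represented by DROSHA and DGCR8. DROSHA, the nuclease of the complex, had the single probe set 218269_at, with signals of 1435 with the control mimic and 1606 with miR-34a. Its log2 ratio was 0.16, inside the range of -0.56 to 0.48 for probe sets of that level. No second probe set was there to check it.

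DGCR8, the RNA-binding partner of DROSHA, had 4 probe sets, all annotated to DGCR8 and to MIR1306 together. MIR1306 is a microRNA gene that lies within DGCR8 in the RefSeq gene table, so these probe sets are read as shared and give no value for DGCR8 alone. The brightest, 64474_g_at, went from 543 to 466, a log2 ratio of -0.22. The next, 218650_at, went from 477 to 442, at -0.11. The probe set 91617_at went from 323 to 304, at -0.088. On the dimmest, 219811_at, the signals were 81.2 and 61.8, the second within background, at -0.33, or -0.22 with 4 times the pseudocount. The 4 shared probe sets were thus all lower with miR-34a, with an SD of 0.11 among them, and each lay inside the range for its level.

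The export step is XPO5. It encodes exportin 5, which carries hairpins with RanGTP out of the nucleus, and it was lower with miR-34a on all 3 of its probe sets. On 223056_s_at the signal was 764 with the control mimic and 522 with miR-34a, a log2 ratio of -0.54. On 223055_s_at it was 681 and 586, at -0.22. On 223057_s_at it was 375 and 263, at -0.50. All 6 signals were above background. The mean over the 3 probe sets was -0.42 ± 0.18 (SD over probe sets), and none of the 3 was outside the range of its level, which ran from -0.77 to 0.63 for the 2 brighter ones. All 3 belong to the _s_at class, whose probes match more than 1 transcript, so no more specific probe set stood beside them.

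DICER1, the cytoplasmic RNase that turns the hairpin into a duplex, was lower on its 3 expressed probe sets. The signals of 213229_at were 233 and 146, a log2 ratio of -0.63, just below the range of its level at -0.628 to 0.65. With 4 times the pseudocount it was -0.51, no longer past 1.5-fold. Those of 212888_at were 191 and 133, at -0.49. Those of 206061_s_at were 167 and 152, at -0.13, a smaller difference than on the other two. The mean was -0.41 ± 0.26 (SD over 3 probe sets), and 26.1% of the 1377 genes with 3 expressed probe sets had an SD as large. The remaining 3 probe sets went the other way and read within background on both arrays. Their signals were 21.8 and 28.6 on 216260_at, 6.67 and 21.0 on 216280_s_at, and 1 and 11.9 on 216281_at, the control value of the last being the lowest that the table holds. No direction is read from these 3.

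**Figure D3:**
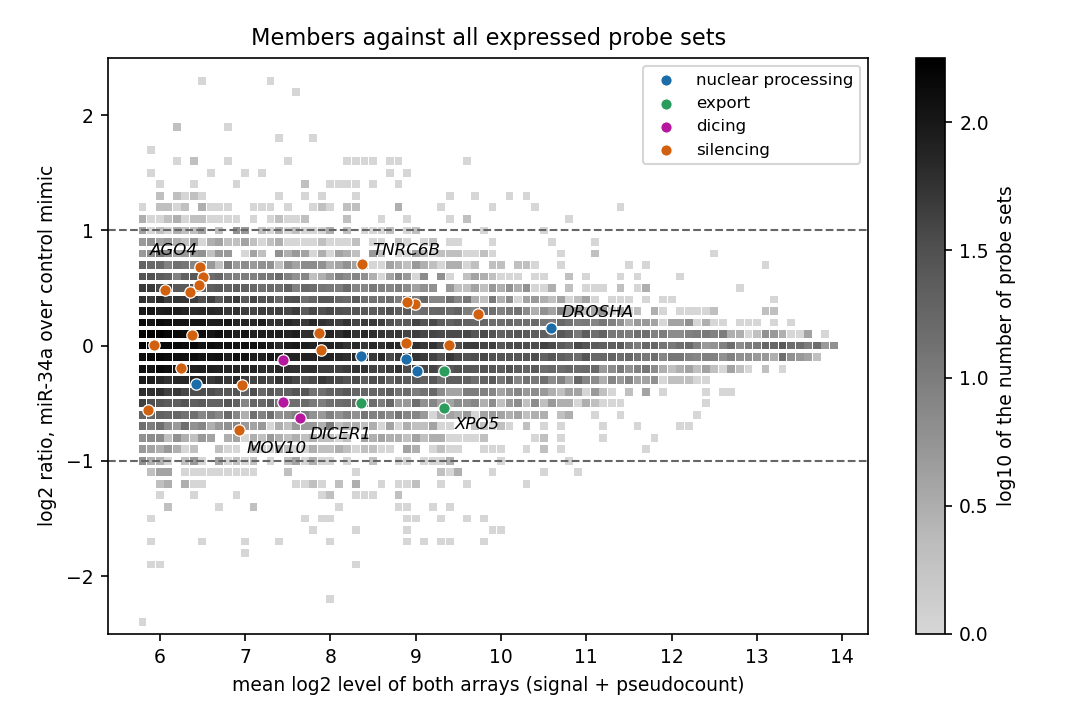
Log2 ratio of miR-34a over control mimic against mean log2 level of both arrays, with all expressed probe sets in grey (darker for more probe sets per cell) and the 30 expressed member probe sets coloured by step. The members lie between -0.74 and 0.71, within the dashed lines at 2-fold; 1 probe set that is no member lies above the plotted range.

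The 4 Argonaute genes encode the proteins that hold the guide strand. AGO2 is the one of them that cuts a fully paired target, and AGO4, AGO1 and AGO3 follow each other on chromosome 1 in the RefSeq gene table with no other coding gene between them. Over the 12 expressed Argonaute probe sets 9 were higher and 3 lower, the median log2 ratio was 0.055, and 0 lay outside the range of their level. At 1.5-fold 1 of the 12 was higher and 0 were lower, beside the 3.23% and 2.93% of all expressed probe sets, and the 1 was a probe set of AGO4 with a control signal within background.

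AGO2 was higher on its 3 expressed probe sets. The signals of 225827_at were 759 and 922, a log2 ratio of 0.27. Those of 225569_at were 401 and 529, at 0.38. Those of 213310_at were 456 and 464, at 0.021. The last is close to no difference, and the mean was 0.22 ± 0.18 (SD over 3 probe sets). The last 2, and 1561042_at within background at 19.8 and 21.2, were annotated to AGO2 and CASC7 together. CASC7 is listed as a synonym of AGO2 in the RefSeq gene table and has no entry there, so they were counted for AGO2.

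AGO1 had probe sets that went in different directions. On the brightest, 228120_at, the signals of 652 and 656 gave a log2 ratio of 0.0031. On 218287_s_at they were 435 and 564, at 0.36. On 222576_s_at they were 126 and 96.3, at -0.34. The pair of _s_at probe sets thus lay on opposite sides of the brightest, and the mean was 0.0058 ± 0.29 (SD over 4 probe sets). The fourth, 239036_at, read 46.0 and 46.5, within background, at 0.0050. An SD as large was found in 21.5% of the 544 genes with 4 expressed probe sets.

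AGO3 showed little difference. On 219426_at, its single probe set above background, the signals were 226 and 219.9, a log2 ratio of -0.040. The other 2 expressed probe sets were within background on both arrays, 235782_at at 65.8 and 71.2 and 228932_at at 66.5 and 56.3, with log2 ratios of 0.088 and -0.20. A further one, 241091_at, read 25.6 and 21.8, under the filter.

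AGO4 had no probe set above background on both arrays. The signal of 227930_at was 55.1 with the control mimic and 97.6 with miR-34a, a log2 ratio of 0.68. That of 219190_s_at was 54.9 and 81.6, at 0.46. With 4 times the pseudocount these ratios were 0.45 and 0.30, the first no longer past 1.5-fold. Both crossed the background line of 75.4 from below, and both lay inside the range of their level, the first at its edge of 0.69. The remaining probe sets went the other way under the filter, 222842_at from 26.7 to 21.5 and 1569408_at from 14.8 to 9.48. A difference in AGO4 therefore rests on signals near background and on 2 of 4 probe sets.

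TNRC6B, which encodes a GW182 protein that links Argonaute to the deadenylases, had the widest range of log2 ratios among the expressed probe sets of a member. On the brightest probe set, 1558142_at, the signal was 243 with the control mimic and 409 with miR-34a, a log2 ratio of 0.71, above the range of -0.63 to 0.64 for its level. On the next, 229036_at, it was 209 and 227, at 0.11. These were the 2 probe sets of the gene above background on both arrays. Probe sets of 1 gene had a pooled SD of 0.24 over all 5494 genes with 2 or more of them. That SD is of single values, so it does not measure how far 2 probe sets usually differ.

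The dimmer probe sets of TNRC6B also disagreed. The signals of 213254_at were 58.8 and 96.9, a log2 ratio of 0.60, and those of 240044_x_at were 58.3 and 91.0, at 0.53. On 238468_at they were 41.8 and 64.5, both within background, at 0.48. In the opposite direction, 228998_at went from 55.4 to 33.0, both within background, at -0.56. With 4 times the pseudocount these 4 ratios were 0.40, 0.35, 0.29 and -0.32. The seventh, 230779_at, read 21.9 and 43.4, under the filter. Over the 6 expressed probe sets the mean was 0.31 ± 0.47 (SD) and the range 1.27, and 2.47% of the 81 genes with 6 expressed probe sets had an SD as large. Taking the brightest probe set for the gene gave 0.71, and taking the mean gave 0.31.

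MOV10, an RNA helicase that associates with Argonaute, had the lowest value of all member probe sets. On 223849_s_at the signal was 142 with the control mimic and 79.4 with miR-34a, a log2 ratio of -0.74, below the range of -0.58 to 0.61 for its level. The miR-34a signal was close to the background line of 75.4. The other probe set, 233917_s_at, went from 20.1 to 7.39, within background on both arrays, at -0.66. Both of its probe sets belong to the _s_at class. With 4 times the pseudocount the value of 223849_s_at was -0.54.

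Probe sets of 1 gene were compared for direction. Of 8 members with 2 or more expressed probe sets, 5 had all of them on the same side of 0, namely DGCR8 with MIR1306, XPO5, DICER1, AGO2 and AGO4. Over all genes this was so for 53.7% of the 5494 with 2 or more, for 45.1% of those with 3 and for 37.3% of those with 4. The members with both directions were AGO1, AGO3 and TNRC6B. Among the 5, DGCR8 was counted on shared probe sets, and AGO4 on 2 whose control signals were within background. The probe sets of AGO4 and DICER1 under the filter went the other way. By step, 4 of 5 expressed probe sets were lower for nuclear processing, 3 of 3 for export and 3 of 3 for dicing. For silencing 14 of 19 were higher, beside 49.998% of all expressed probe sets. The step medians were -0.11, -0.50, -0.49 and 0.11 in that order. These are counts of probe sets and not of genes, since export is XPO5 alone and dicing DICER1 alone. The 4 lower nuclear ones are those shared by DGCR8 and MIR1306, while DROSHA was higher. Many of the higher silencing probe sets had a control signal within background. These were 239036_at of AGO1, 235782_at of AGO3, both expressed ones of AGO4, and 213254_at, 240044_x_at and 238468_at of TNRC6B. Among the lower silencing ones, 228932_at of AGO3 and 228998_at of TNRC6B had such a control signal too. Of the 20 member probe sets above background on both arrays, 8 were higher and 12 lower, and past 1.5-fold there was 1 higher and 2 lower. Over all 18242 expressed probe sets above background on both arrays, 2.38% were past 1.5-fold higher and 2.61% lower.

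The other genes of the pathway, from a list of 77 chosen by function, were read in the same way. The brightest expressed probe set stood for a gene, and 71 of the 77 had one. Of these, 31 were higher and 40 lower with miR-34a, with a median log2 ratio of -0.043. With quantile normalization 34 were higher and 37 lower, and with the mean over a gene's probe sets 28 and 43. The ratios were centred on probe sets, and the share of all expressed genes that was lower is not given here. None of the 71 was past 2-fold, beside 0.603% of all 12774 expressed genes past it upward and 0.540% downward. At 1.5-fold 0 were higher and 2 lower, TSN and DCP1A. This was 2.82% of the 71, near the 2.94% of all expressed genes at least 1.5-fold lower, and 3.32% of all were at least 1.5-fold higher. On the same measure TNRC6B and AGO4 were past 1.5-fold higher among the members, and DICER1 and MOV10 past 1.5-fold lower; the lists were not compared by a test.

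Of 10 partners of nuclear processing, 8 were lower, with a median of -0.12. The lowest was ILF2 at -0.28, with signals of 1608 and 1326. The highest was NCBP1, a subunit of the nuclear cap-binding complex, at 0.052, with signals of 402 and 419, although its second probe set gave -0.57. Among 3 export genes, XPO1, the exportin of proteins and many RNAs, was lowest at -0.16 and XPOT, the exportin of tRNA, highest at 0.021. The second probe set of XPOT gave -0.21. RAN, the GTPase that exportin 5 binds together with its cargo, had -0.11 on the brighter of its probe sets and 0.35 on the dimmer.

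For dicing and loading, 7 of 12 genes were lower, with a median of -0.029. TSN, which encodes translin, was the lowest, with signals of 2145 and 1422 and a log2 ratio of -0.59. Its 3 probe sets lay close together, between -0.75 and -0.59. Its binding partner in the C3PO nuclease, TSNAX, was the highest of the step at 0.31, with signals of 828 and 1036, so the 2 subunits were on opposite sides of 0. Among partners of DICER1, TARBP2 had -0.19 on its brightest probe set and 0.015 on its second. PRKRA had -0.027 on its brightest and -0.31 on its second.

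Among 13 GW182 proteins and silencing cofactors 7 were lower, with a median of -0.0057. TNRC6C, a relative of TNRC6B, was the lowest at -0.56, but its signals of 62.0 and 37.4 were within background. TNRC6A, the third of the family, had -0.17 on its brightest probe set and lay between -0.40 and 0.34 over 4. FMR1, which encodes the fragile X RNA-binding protein, was the highest at 0.31, with signals of 221 and 278, and 0.58 on its second probe set. Its relatives FXR1 and FXR2 were higher too, at 0.16 and 0.24, with all 4 expressed probe sets of FXR1 and both of FXR2 above 0.

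The 24 measured genes of deadenylation and decapping had the widest range, from -0.61 to 0.53, with 14 higher and 10 lower. This step also had the most genes, and a range tends to widen with their number. The decapping cofactor DCP1A was the lowest, with signals of 174 and 110 and a log2 ratio of -0.61, and its other probe set gave -0.18. XRN1, the exonuclease that degrades decapped mRNA, was the highest, with signals of 183 and 271, at 0.53 and with its other probe set at 0.30. Both subunits of the PAN2 and PAN3 deadenylase were lower, at -0.39 each, with the miR-34a signal of PAN2 within background at 64.1. The listed CNOT genes, named for the CCR4-NOT deadenylase, went both ways on their brightest probe sets. Higher were CNOT1 (0.025), CNOT3 (0.40), CNOT4 (0.41), CNOT6L (0.30), CNOT8 (0.24), CNOT9 (0.12), CNOT10 (0.22) and CNOT11 (0.13). Lower were CNOT2 (-0.073), CNOT6 (-0.41) and CNOT7 (-0.24). CNOT6L, CNOT7 and CNOT9 each had expressed probe sets on both sides of 0. Of the 9 tailing and turnover genes 6 were lower, with the exonuclease ERI1 lowest at -0.50 and the uridylyltransferase TUT7 highest at 0.12. The second probe set of ERI1 gave -0.15, and TUT7 lay between -0.25 and 0.13 over 4.

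**Figure D4:**
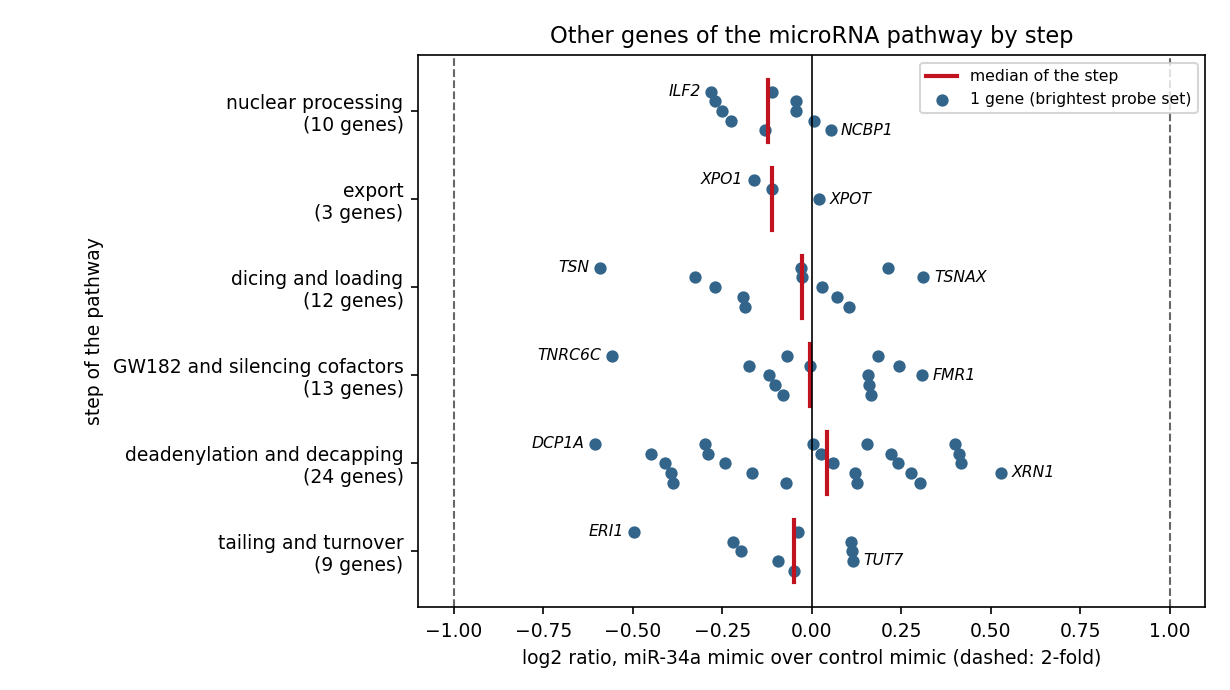
Log2 ratio of miR-34a over control mimic for the 71 measured genes of the pathway list, 1 point per gene from its brightest expressed probe set, in rows by step with the step's median as a vertical bar. The highest and lowest gene of each step are named, and 0 of the 71 points reach the dashed lines at 2-fold.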

How the data were processed

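Per the labels' protocols, Trizol-extracted total RNA was labelled with biotin as cRNA, following Affymetrix. Values come from the authors' deposited table of linear probe set intensity values for both arrays. The sources used here do not give the software, background correction or scaling. The lowest value in it is 1. The table's columns bear the samples' names, with 0 columns of any other sample. Intensities were taken to log2(intensity + 14.9), where 14.9 is their 25th percentile, and the median ratio of 27307 expressed probe sets, 0.0051, was subtracted. Expressed means at or above the 50th percentile of mean level, a signal of about 39.0. Genes were named from the platform annotation, and all 10 members were in the RefSeq table of GRCh38.p14. Probe sets with several symbols gave no gene value, apart from those shared by AGO2 and its synonym CASC7. The 4 shared by DGCR8 and MIR1306 were kept in the counts and medians of member probe sets and in the comparison of directions. The genes set beside the members in that comparison had probe sets with 1 symbol only.

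With 1 array per group, sizes were counted at 2-fold and 1.5-fold and nothing was tested. The members, lists and settings were chosen with earlier results of these data known, and the level bins after the values were seen. Among the other pathway genes, the highest and lowest of each step and all past 2-fold are named. Further ones are named as relatives or partners of a member, or as CNOT genes, chosen after their values were seen. TRIM71 was under the filter, HSPA8 and PABPC4 had shared probe sets, and the remaining listed genes without a value were not analysed here. A search of the members' transcripts for miR-34a seed matches was planned and not run, since no transcript sequences were used here. The calculation was tested on simulated data. Differences of 2-fold or more were planted there, outside the dimmest expressed probe sets, so the recovery of smaller differences was not tested. Alternatives varied the pseudocount, filter, centring, normalization, probe set classes, fold and the value taken for a gene. Calculations ran in Python 3.11.15 with pandas 2.3.3 and NumPy 2.4.6, loess in statsmodels 0.14.6, and plots in matplotlib 3.10.9.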

Additional observations from a re-analysis of the deposited data

How the results depend on the processing

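No paired analysis was possible because each group has 1 array. The alternatives were 4 times the pseudocount or the pseudocount divided by 4, no centring, quantile or loess normalization (span 0.3), and, for counts and medians, no filter, a filter at the 75th percentile of level, leaving out the _s_at, _x_at and _a_at classes, and 1.5-fold. The count of member probe sets past 2-fold stayed at 0 in both directions under all of these but the last, at which 3 were higher and 2 lower. Among the other pathway genes 2 were lower at 1.5-fold, and 1, TRIM71, was past 2-fold with no filter, at signals of 54.0 and 11.9, both within background. The median of the member probe sets ranged from -0.049 with the filter at the 75th percentile to 0.0050 without the less specific classes. Under the 5 alternatives to pseudocount, centring and normalization, 1 of 30 member probe sets changed sign, 239036_at of AGO1, which lies near 0. A move by the pooled probe set SD of 0.24 or more was seen for 228998_at of TNRC6B, at -0.32 with 4 times the pseudocount, and for TNRC6B as a mean over its probe sets, at 0.31. Signals near 75.4 limit what can be read for AGO4, the dimmer probe sets of TNRC6B and AGO3, and MOV10.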
